A study of Spirodela polyrhiza with 13 samples.

Results

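In fronds of the greater duckweed Spirodela polyrhiza, 71 of 19623 listed genes were expressed up to developmental stage 4 and dropped sharply at stage 5 without regaining their level at stage 6. The genes were chosen by their measured levels. A gene was taken when its mean at stage 4 was at least 5 FPKM, when L, the log2 of the stage mean plus 1, was lower by at least 1.5 at stage 5 than at stage 4, and when both stage 5 libraries lay below every stage 4 library. In addition L could be higher at stage 6 than at stage 5 only by less than 0.8, and L at stage 2 had to lie above the larger of L at stages 3 and 4 minus 0.8. FPKM counts fragments on a gene, scaled to the length of the gene and to the size of the library. All 5 stages thus took part in choosing the genes, so their levels are given as a description, and no test within this table is independent of the choice.

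The libraries came from wild-type plants, sampled in 3 libraries per stage for stages 2, 3 and 4 and in 2 libraries per stage for stages 5 and 6. The labels give the stages by number only, with no age in days, and name the tissue as frond without a part of it. All plants were kept in SH medium under long days, and no group received an agent or carried an allele of its own. The labels do not say whether the replicate libraries stem from different plants or cultures, so the spread between them may be technical. The libraries held between 7708200 and 10910370 reads on genes, which could be recovered as whole reads from the steps of the FPKM values.

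A duckweed plant is reduced to a floating leaf-like frond that buds daughter fronds from pockets at its base. As a frond matures, cell division gives way to cell expansion and to the opening of aerenchyma, the gas spaces that keep it afloat, and the study asked how plant hormones relate to that tissue. RNA of whole fronds mixes all cell types, so fewer cells of a type and less RNA per cell cannot be told apart. The deposited table gives bare IDs, with neither names nor products. The genes are therefore given by ID and by the length of their coding model, and no function is assigned to any of them.

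The name of the group holds as a fall and not as an absence of RNA. At stage 5 the 71 genes kept a median of 27.8% of their stage 4 mean FPKM, with a range from 6.34% to 34.7%. At stage 6 the median was 29.7%, with a range from 13.8% to 55.8%. Only 2 of the genes had a mean below 1 FPKM at stage 5, Spipo1G0075400 and Spipo20G0017500. The median of the stage means over the 71 genes was 47.1 FPKM at stage 2, 40.0 at stage 3 and 40.7 at stage 4, against 11.6 at stage 5 and 12.6 at stage 6. These medians do not show the course of single genes, of which 21 moved by at least 0.5 in L between stages 2 and 4.

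**Figure D1:**
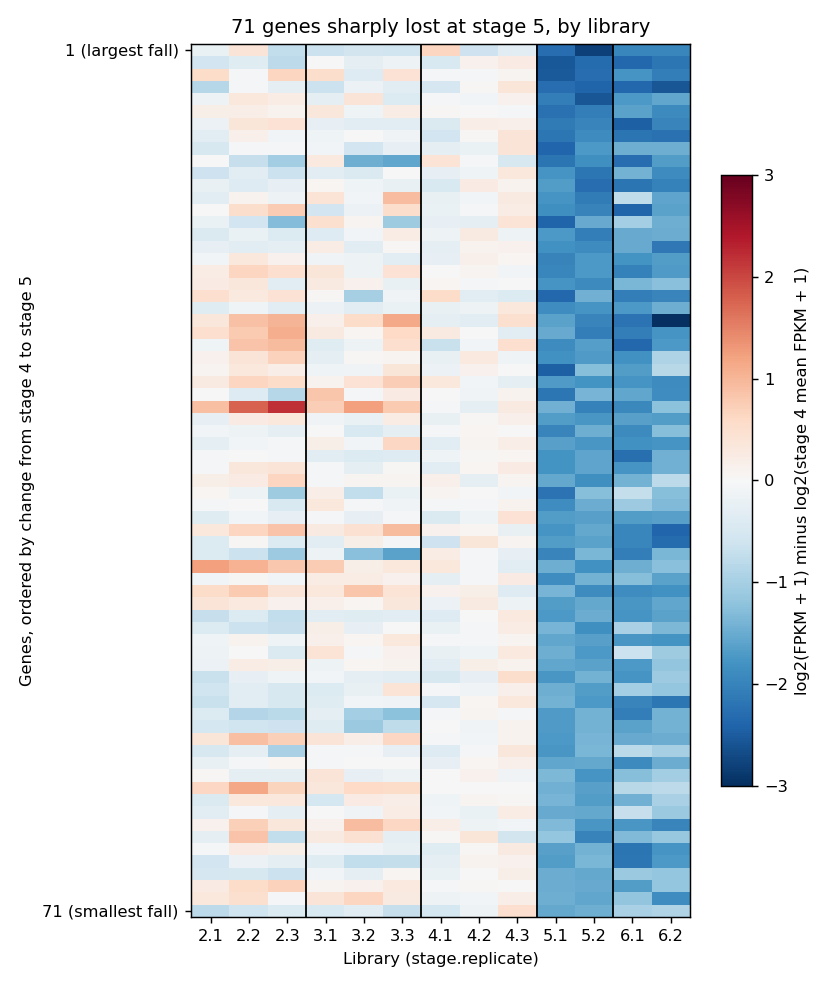
Level of each of the 71 genes (rows, ordered by the change from stage 4 to stage 5) in each of the 13 libraries (columns, stage and replicate), as log2(FPKM + 1) minus the log2 of the stage 4 mean plus 1; colours saturate beyond 3 in either direction. The 4 columns of stages 5 and 6 are blue throughout, while the columns of stages 2 to 4 are pale with a few rows that are red at stage 2.

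In most of the genes the fall lay largely between stages 4 and 5. The rule's limits on stages 2, 5 and 6 favour a large share at this step. The labels give no time between stages, so the speed of the fall is not known. Between stages 4 and 5 lay a median of 99.5% of the difference between the highest of L at stages 2 to 4 and L at stage 6, with quartiles of 79.5% and 120%. In 33 genes it held more than 100%, since part of the level came back at stage 6. The median change in L was -0.04 between stages 2 and 3, 0.02 between stages 3 and 4, -1.68 between stages 4 and 5 and 0.12 between stages 5 and 6. Over all 15608 genes tested the medians were 0.03, -0.06, -0.18 and -0.05. The differences of the 71 genes from all genes at these steps follow from the rule and are not a finding.

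From stage 4 to stage 5 limma, a linear model per gene with a spread shared across genes, called all 71 genes as falling at an adjusted p under 0.05, where 30.7% of all genes tested were called as falling, and the rule had used this contrast. Both stage 5 libraries lay below all 9 libraries of stages 2 to 4 in 70 of the 71 genes, beside 33.3% of all genes tested. The exception was Spipo5G0026500 (coding length 1293 bases), at 5.42 and 8.73 FPKM at stage 5 and at 7.32 FPKM in 1 stage 3 library. With both stage 6 libraries included, 67 of the 71 genes were below all libraries of stages 2 to 4, beside 29.3% of all genes tested. The other exceptions were Spipo7G0025400, Spipo21G0034200 and Spipo3G0025400, named because the count is small. Every one of the 71 had both stage 6 libraries below every stage 4 library. The rule bounds stage 6 through stage 5, and the share over all genes tested was not counted, so nothing is read from this.

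The largest fall in L belonged to Spipo1G0075400 (966 bases). Its libraries were at 7.88, 12.4 and 5.12 FPKM at stage 2, at 5.56, 5.93 and 5.68 at stage 3 and at 15.0, 5.58 and 7.00 at stage 4. They were at 1.07 and 0.472 FPKM at stage 5 and at 1.61 and 1.63 at stage 6. One stage 4 library, replicate 1, stood well above the others, and neither stage 5 nor stage 6 overlapped the earlier stages. The mean went from 9.18 ± 5.05 FPKM (SD, n = 3) to 0.773 ± 0.426 (SD, n = 2), a change in L of -2.52 that rests on 258 and 12 reads. Its rank turned on that library: limma's log2 change was -2.43, against -2.39 for Spipo14G0017100, and without stage 4 replicate 1 it was -2.05 against -2.61. The order also turned without stage 5 replicate 2 (-2.19 against -2.51), with library weights (-2.10 against -2.49) and with a pseudocount of 5 (-1.24 against -2.28).

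Spipo14G0017100 (1308 bases) had the next largest fall at a far higher level, so that sampling of reads matters less to it. Its libraries were at 136, 157 and 118 FPKM at stage 2, at 204, 168 and 182 at stage 3, at 147, 223 and 240 at stage 4, at 34.1 and 40.1 at stage 5 and at 38.8 and 44.6 at stage 6. The 9 earlier libraries were at 118 FPKM or more and the 4 later ones at 44.6 or less, with no overlap. Its mean went from 203 ± 49.4 FPKM (SD, n = 3) to 37.1 ± 4.22 (SD, n = 2), a 5.47-fold fall and a change in L of -2.42, from 7848 to 804 reads.

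Spipo20G0017500 (441 bases), singled out after its values were seen, had the largest fold fall and the fewest reads. Its libraries were at 6.26, 6.11 and 6.81 FPKM at stage 4 and at 0.294 and 0.517 at stage 5. The 83 reads at stage 4 and 3 reads at stage 5 give a ratio of 15.5 per library read, with a 95% exact interval of 5.14 to 76.9 that covers counting error only. Of the 71 genes, 3 had under 10 reads over both stage 5 libraries (this gene, Spipo6G0036600 and Spipo21G0034200) and 28 had under 100, while the median was 164 reads at stage 5 and 1029 at stage 4.

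The genes spanned a wide range of levels before the fall. At stage 4, 10 had a mean between 5 and 10 FPKM, 43 between 10 and 100, 16 between 100 and 1000, and 2 above 1000. The highest was Spipo2G0090400 (1458 bases), at 1124, 1069 and 1038 FPKM at stage 2, at 1259, 746 and 952 at stage 3, at 1610, 1495 and 1722 at stage 4, at 491 and 605 at stage 5 and at 529 and 604 at stage 6. All 3 stage 4 libraries were above every other library, and the 4 late libraries lay together below all the others. Its mean at stage 5 was 548 ± 81.0 FPKM (SD, n = 2), 34.1% of the stage 4 mean of 1609 ± 114 (SD, n = 3).

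Spipo7G0025400 (387 bases) was the other gene above 1000 FPKM, and its libraries were far apart. It was at 1088, 840 and 513 FPKM at stage 2, at 1766, 1338 and 598 at stage 3, at 1056, 1042 and 1678 at stage 4, at 237 and 438 at stage 5 and at 616 and 453 at stage 6. The stage 6 libraries overlapped those of stages 2 and 3, though not those of stage 4. Its stage means were 1258 ± 363 FPKM (SD, n = 3), 338 ± 142 (n = 2) and 534 ± 116 (n = 2) for stages 4, 5 and 6.

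**Figure D2:**
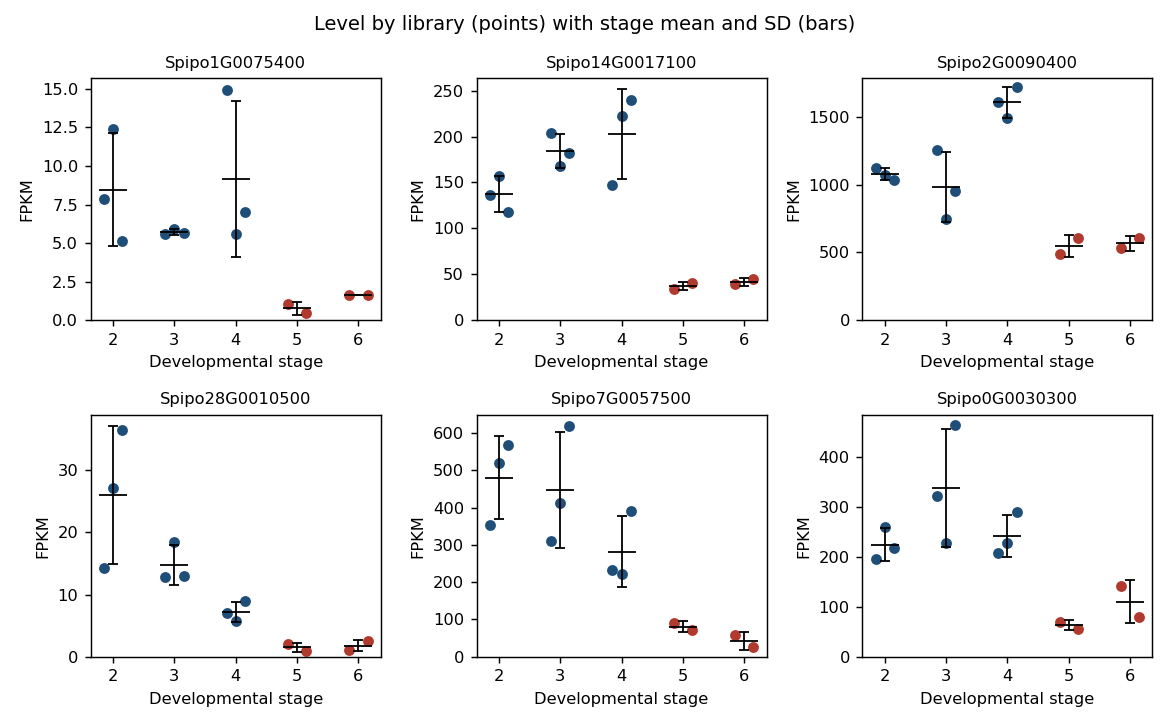
FPKM of 6 of the genes in each library (points; blue for stages 2 to 4, red for stages 5 and 6) with the stage mean and SD (black), over the developmental stage. Spipo14G0017100 and Spipo2G0090400 are highest at stage 4, Spipo28G0010500 and Spipo7G0057500 are highest at stage 2, and in Spipo0G0030300 the stage 6 mean of 110 FPKM lies above the stage 5 mean of 63.0.

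Before the fall the genes took different courses. Between stages 2 and 4 L was higher by at least 0.5 in 12 genes, lower by at least 0.5 in 9 and within 0.5 in 50. The highest stage mean fell on stage 2 for 29 genes, on stage 3 for 12 and on stage 4 for 30. These groups are descriptions of the means. Stages 2 and 4 were not compared by a test, since tests ran between neighbouring stages only, where few changes were called.

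From stage 2 to stage 3 limma called 2 of the 71 genes as rising (adjusted p under 0.05), beside 8.81% of all genes tested, and none as falling, beside 6.64%. At an unadjusted p under 0.05 limma had 9 higher and 8 lower. The share over all genes was not counted there, so nothing is read from it. Voom, a form of limma that weights log counts by their precision, called 2 as rising and 1 as falling on the recovered reads. It called 17.8% of all genes tested in either direction. The genes called by limma were Spipo14G0028100 (1455 bases) and Spipo0G0093100 (1698 bases), named because the count is small. Spipo14G0028100 was at 133, 136 and 120 FPKM at stage 2 and at 181, 154 and 197 at stage 3, with no overlap, and its mean was 190 ± 25.6 FPKM (SD, n = 3) one stage later and 66.0 ± 1.68 (SD, n = 2) after the fall. Spipo0G0093100 was at 15.2, 12.7 and 12.3 FPKM at stage 2 and at 23.2, 17.1 and 20.3 at stage 3, again with no overlap. Spipo0G0093100 was called in 12 of 23 alternatives, and not with median ratio scaling (adjusted p = 0.0533, limma) or quantile normalization (0.0845). Under both of these scalings 1 gene was called as rising and 1 as falling, the latter Spipo0G0020800 (adjusted p of 0.0431 and 0.0366, limma). With a replicate block 2 were called as rising and 3 as falling, and with library weights 3 and 4. These settings called 17% and 31.9% of all genes tested in either direction. No gene was called without stage 2 replicate 3 or without stage 3 replicate 3, beside 4.86% and 6.51% of all genes tested. There was 1 without stage 2 replicate 2, stage 3 replicate 2 or stage 4 replicate 2, beside 8.17%, 5.2% and 12.6%. There were 4 without stage 2 replicate 1 or stage 4 replicate 1, beside 10.3% and 15.9%. The rule limits rises at this step, and the count is read with that limit.

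The largest differences in L between stages 2 and 3 belonged to other genes, whose libraries were more spread. Spipo5G0013800 (240 bases) was at 17.7, 13.4 and 9.55 FPKM at stage 2 and at 32.9, 17.6 and 21.5 at stage 3, a change in L of 0.78, and the lowest stage 3 library lay just under the highest of stage 2. Spipo7G0025400, described above, had the second largest increase in L, 0.60, with overlapping stages. Spipo28G0010500 (453 bases) had a change of -0.77, from 14.3, 27.1 and 36.4 FPKM to 12.8, 18.4 and 13.1, where 1 stage 2 library lay among those of stage 3. Spipo29G0009900 (189 bases) had -0.70, from 21.3, 18.2 and 20.4 FPKM to 15.1, 6.87 and 13.7, with no overlap. These 4 changes were not called. Without stage 2 replicate 1 Spipo5G0013800 and Spipo28G0010500 were called, and the former also without either stage 5 library or with a pseudocount of 5. Spipo29G0009900 was called with library weights (log2 change -1.11, adjusted p = 0.0107, limma).

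The step from stage 3 to stage 4 is the one that the rule does not use as a contrast, although the stage 4 level entered it. There limma called 1 of the 71 genes as rising (adjusted p under 0.05), beside 1.91% of all genes tested, and none as falling, beside 1.10%. At an unadjusted p under 0.05 limma had 5 higher and 9 lower, without a share over all genes beside it, so nothing is read from it. Voom called 2 as rising and none as falling, beside 3.44% of all genes tested in either direction. The gene called by limma was Spipo2G0090400, which was higher by 0.74 (log2, SE 0.16, limma, adjusted p = 0.027). That p ranged from 0.000972 to 0.0988 over the alternatives. It lost the call without any 1 of stage 3 replicates 2 and 3 and stage 4 replicates 1, 2 and 3, when no gene of the group was called. Between 0.826% and 3.01% of all genes tested were called in those fits. Without stage 3 replicate 1 there were 4 calls, beside 3.29% of all genes tested. Without stage 2 replicate 2 there were 2, of which Spipo12G0065200 fell, beside 2.33%. With library weights 7 genes were called as rising and 9 as falling, where 21.8% of all genes tested were called in either direction.

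The other named changes between stages 3 and 4 did not pass the test. Spipo5G0026500 was at 21.9, 9.62 and 7.32 FPKM at stage 3 and at 28.6, 23.8 and 20.3 at stage 4 (log2 change 0.99, SE 0.33, adjusted p = 0.119, limma), and 1 stage 3 library reached into the range of stage 4. Spipo26G0008900 (2625 bases) was at 197, 117 and 100 FPKM and then at 231, 250 and 230 with no overlap (log2 change 0.84, SE 0.23, adjusted p = 0.0666, limma). Both came within the calls when stage 3 replicate 1 was left out, with adjusted p of 0.0145 and 0.00917 (limma), and when limma weighted the libraries, with 0.00551 and 0.00167. That library was the highest of stage 3 in both genes.

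In the opposite direction Spipo28G0010500 went from a mean of 14.8 ± 3.15 FPKM at stage 3 to 7.22 ± 1.61 at stage 4 (SD, n = 3 each; log2 change -0.94, SE 0.31, adjusted p = 0.111, limma). It was at 7.03, 5.71 and 8.91 FPKM at stage 4 and at 2.00 and 1.01 at stage 5, after a stage 2 mean of 25.9 ± 11.1 FPKM (SD, n = 3). Spipo7G0057500 (342 bases) was at 354, 519 and 568 FPKM at stage 2, at 311, 413 and 618 at stage 3 and at 232, 221 and 392 at stage 4 (log2 change from stage 3 to stage 4 -0.66, SE 0.32, adjusted p = 0.274, limma). Stages 3 and 4 overlapped in this gene, and stage 5, at 91.0 and 70.7, lay clear below both. With library weights both falls were called, with adjusted p of 0.00325 for Spipo28G0010500 and 0.0174 for Spipo7G0057500 (limma).

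After the fall most genes stayed low. From stage 5 to stage 6 L moved by less than 0.5 in 54 genes, was higher by at least 0.5 in 14 and lower by at least 0.5 in 3. The lowest mean of the series was at stage 5 for 44 genes and at stage 6 for 27. Both stage 6 libraries lay above both stage 5 libraries in 21 genes and below them in 10, and the stages overlapped in 40. The shares over all genes tested were not counted and the rule limits rises at this step, so these counts are a description only. Of the 50 genes that were level before the fall 39 also stayed low after it, and of the 12 that had been higher at stage 4 than at stage 2 the same held for 9.

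**Figure D3:**
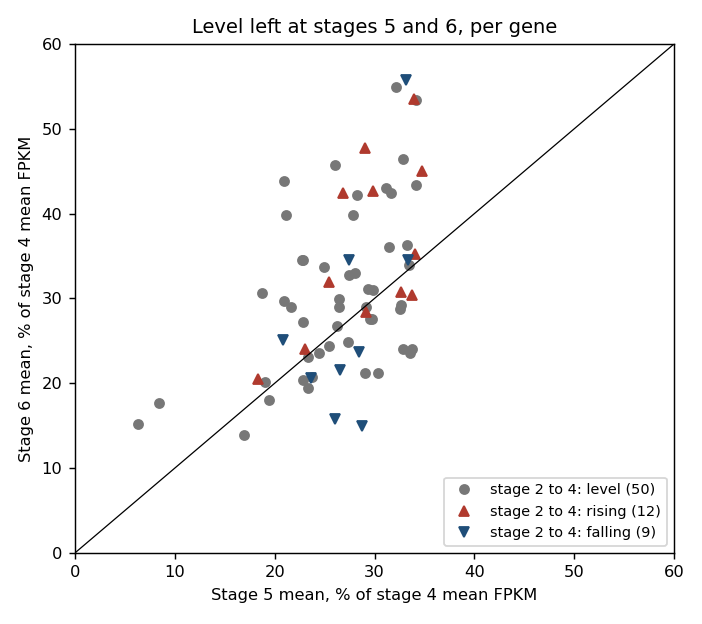
Stage 6 mean against stage 5 mean, each in percent of the stage 4 mean FPKM, for the 71 genes; symbols give the course between stages 2 and 4 and the line marks equal levels. Points spread on both sides of the line, 44 above and 27 below, and reach 55.8% at stage 6.

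The rule limits increases from stage 5 to stage 6, and the calls at this step are given beside the background only. Limma called 3 of the 71 genes as rising (adjusted p under 0.05), beside 5.35% of all genes tested, and none as falling, beside 7.20%. At an unadjusted p under 0.05 limma had 14 higher and 3 lower, without a share over all genes beside it, so nothing is read from it. Voom called none in either direction, beside 11% of all genes tested. The called genes were Spipo12G0065200 (483 bases), Spipo14G0010800 (693 bases) and Spipo11G0051500 (1338 bases). Each of them lost the call without stage 5 replicate 1, without stage 5 replicate 2 and without stage 6 replicate 1, fits that leave 1 library at a stage. With a replicate block 5 were called, 4 as rising and 1, Spipo7G0057500, as falling, beside 15.2% of all genes tested in either direction. Without stage 6 replicate 2 the called genes were partly others, among them Spipo14G0057800 with a log2 change of -0.58 (limma).

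Spipo12G0065200 had the highest share of the stage 4 level at stage 6. It was at 41.3, 42.2 and 41.0 FPKM at stage 4, at 14.8 and 12.7 at stage 5 and at 22.8 and 23.5 at stage 6. Spipo14G0010800 was at 91.3, 84.3 and 113 FPKM at stage 4, at 33.0 and 32.7 at stage 5 and at 59.0 and 43.7 at stage 6. Spipo11G0051500 was at 49.0, 52.2 and 70.3 FPKM at stage 4, at 20.1 and 16.7 at stage 5 and at 36.2 and 26.7 at stage 6. In all 3 genes the stages did not overlap, and the stage 6 libraries lay between those of stages 5 and 4. Spipo0G0030300 (1524 bases) had the largest increase in L after the fall, 0.80, from 70.1 and 55.9 FPKM to 141 and 79.7, and was called only without stage 6 replicate 2. One of its stage 6 libraries lay nearer to stage 5 and the other far above it, while its stage 4 libraries had been at 208, 228 and 289 FPKM.

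The 3 genes with L lower by at least 0.5 at stage 6 than at stage 5 were Spipo7G0057500, Spipo8G0021500 (1341 bases) and Spipo0G0019400 (663 bases), the last named because the count is small. Spipo7G0057500 was at 59.4 and 25.0 FPKM at stage 6, a change in L of -0.92 from stage 5 and 15.0% of its stage 4 mean. Spipo8G0021500 was at 12.8, 12.1 and 9.80 FPKM at stage 4, at 2.71 and 3.31 at stage 5 and at 2.22 and 1.43 at stage 6, a change in L of -0.51 after stage 5. Spipo0G0019400 was at 103 and 82.0 FPKM at stage 5 and at 69.3 and 60.3 at stage 6. In all 3 both stage 6 libraries were below both stage 5 libraries, and none of these changes was called. Of 23 alternatives the replicate block alone called Spipo7G0057500 (adjusted p = 0.049, limma), and none called Spipo8G0021500 or Spipo0G0019400, whose lowest adjusted p were 0.0952 and 0.056.

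The limits on stages 2 and 6 decided which of the sharply falling genes belonged to the group. At a mean of at least 5 FPKM at stage 4, 134 of 12985 genes fell by at least 1.5 in L to stage 5, and 132 of them without overlap between the stages. Of these 132, 9 were left out because they came back at stage 6, 29 because they had been much lower at stage 2, and 23 for both reasons. The 29 had a median stage 2 mean of 6.37 FPKM and a median stage 4 mean of 25.1, so they peaked at stage 4. The 9 had medians of 40.4, 11.1 and 24.9 FPKM at stages 4, 5 and 6. In all 9 the stage 6 mean was still below the stage 4 mean. Among them was Spipo2G0070100, at 507, 37.1 and 72.6 FPKM at these stages, a change in L of -3.74 from stage 4 to stage 5. The 71 genes were thus 53.8% of the genes with a sharp fall and no overlap.

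**Figure D4:**
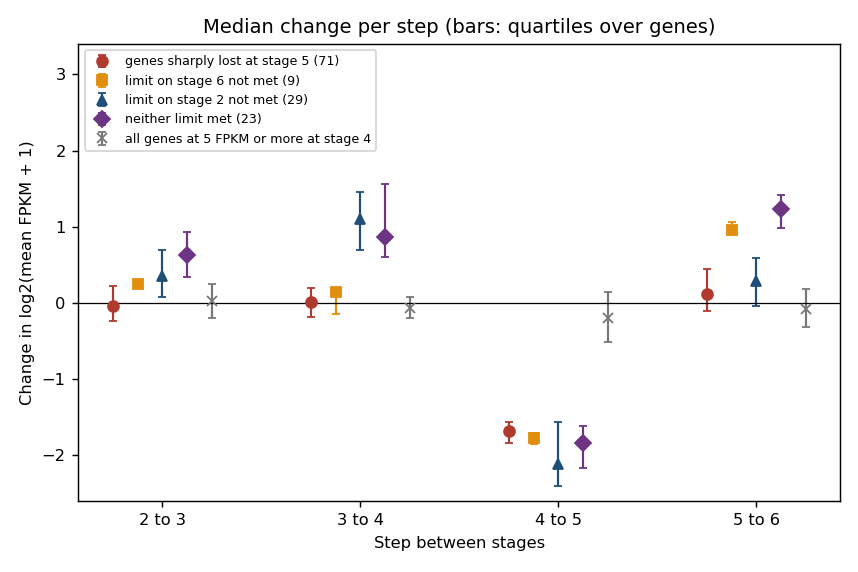
Median change in log2(mean FPKM + 1) at each step (points) with quartiles over genes (bars) for the 71 genes, for the 3 sets left out by the limits on stages 2 and 6, and for all 12985 genes with at least 5 FPKM at stage 4. The medians of all 4 sharply falling sets lie between -1.5 and -2.2 from stage 4 to stage 5 by construction, and they part at the other steps as the limits require.

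The threshold on the fall cut through a continuous range. Just inside were Spipo10G0044900 (1107 bases), with a change in L of -1.502, from 6.91, 9.15 and 15.0 FPKM to 2.93 and 3.09, and Spipo1G0034100 (1035 bases), with -1.51, from 33.5, 34.9 and 43.2 FPKM to 12.9 and 12.0. Just outside were Spipo3G0035300 (507 bases), with -1.4997, from 18.2, 12.3 and 22.2 FPKM to 6.65 and 4.50, and Spipo7G0041000 (1593 bases), with -1.49, from 8.47, 7.58 and 7.13 FPKM to 1.71 and 2.50. The changes on both sides of the threshold were nearly equal.

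Membership depended on single libraries and on scaling, also for some genes well beyond that threshold. Spipo7G0025400, with a change in L of -1.89, was kept under 9 of the 13 libraries left out. Spipo0G0030300, with -1.92, was kept under 10. Leaving out 1 library at a time kept between 49 and 71 of the genes, and 23 were kept whichever library was left out, among them Spipo14G0017100, Spipo20G0017500 and Spipo8G0021500. The fewest were kept without stage 5 replicate 1 (49), stage 5 replicate 2 (51) and stage 4 replicate 3 (52). With each library scaled by its median ratio to the others, which moves the median change of all tested genes from -0.18 to 0.00 between stages 4 and 5, 36 genes met the rule, all of them among the 71. Under that scaling all 71 still had a fall in L of at least 1.32 and were called as falling, and the median share left was 31.8% at stage 5 and 35.8% at stage 6. Of the 23 genes, 21 also met the rule under that scaling, and Spipo8G0021500 did not.

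The libraries of a stage placed the genes a little apart. The 71 genes held between 0.653% and 0.932% of the reads in the 9 libraries of stages 2 to 4 and between 0.240% and 0.293% in the 4 of stages 5 and 6. Stage 4 replicate 3 had the highest share, 0.932%, and was the highest of its stage for 40 of the 71 genes, while stage 4 replicate 1 was the lowest for 41. The median deviation of the 71 genes from their stage mean was 0.13 (log2) in stage 4 replicate 3 and -0.15 in replicate 1, against -0.04 and 0.04 over all genes with at least 5 FPKM at stage 4. At stage 2 replicate 2 was the highest for 37 genes and replicate 1 the lowest for 39. The part of these library differences in the fall was not tested. Without stage 4 replicate 3 the rule found 68 genes, 52 of them among the 71.

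In the median the genes varied more between libraries of a stage than the wider set of expressed genes. Their median coefficient of variation was 15.7% at stage 2 and 16.5% at stage 3, against 9.53% and 9.61% over the 12985 genes with at least 5 FPKM at stage 4. At stages 4, 5 and 6 it was 18.2%, 14.8% and 17.3%, against 10.8%, 8.81% and 9.71%. At stage 4 the median of their mean levels was 40.7 FPKM, against 32.8 in the wider set. The quartiles were 13.1 and 109 against 16.6 and 68.2. At stages 5 and 6 their medians were lower, at 11.6 and 12.6 FPKM against 29.7 and 28.9. Coding lengths were similar in the middle and reached lower, with a median of 1026 against 1035 bases and a lower quartile of 483 against 624. These are descriptions over genes, which are not replicates.

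The rule did not use the IDs. Members were found under 24 of the 33 ID prefixes of the table, and 13 of the 71 (18.3%) carried the prefix Spipo0G, against 8.36% of the wider set. Of 64 members with an expressed gene at a neighbouring ID, 12 (18.8%) had a neighbour whose L fell by at least 1 from stage 4 to stage 5, against 8.64% of 12107 genes. The fall counted here is the contrast that chose the members. In 2 pairs both genes were members, so each counted as the other's falling neighbour through the rule, and nothing is read from the excess. They are named because the count is small. Spipo0G0047100 (459 bases) and Spipo0G0047200 (363 bases) had changes in L of -1.95 and -2.01 from stage 4 to stage 5. They were at 152, 164 and 223 FPKM and at 30.4, 32.7 and 49.4 at stage 4, and replicate 3 was the highest stage 4 library in both. At stage 5 they were at 51.7 and 39.5 FPKM and at 6.43 and 10.7.

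The other pair shared the fall and not the earlier course. Spipo0G0020800 (558 bases) was at 34.3, 30.0 and 25.3 FPKM at stage 2, at 17.7, 13.5 and 10.8 at stage 4 and at 4.42 and 3.27 at stage 5. Spipo0G0020900 (912 bases) was at 41.8, 25.7 and 19.9 FPKM at stage 2, at 55.9, 39.8 and 29.8 at stage 4 and at 8.39 and 10.9 at stage 5. Stage 2 lay above stage 4 without overlap in the first gene, while the stages overlapped in the second. Reads from near-identical copies or overlapping gene models can be split or shared by a counter, and the sources used here do not give the strand setting, so values of neighbours may not be independent.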

How the data were processed

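RNA sequencing of 13 libraries was analysed from 1 table of FPKM values that the authors deposited, with 1 column per library named as the sample. The submitters' processing notes name HISAT2 2.2.1 and HTSeq 0.11.3, besides Trimmomatic 0.39, Picard 2.25.5 and CASAVA 1.8.2, without their roles. Neither genome build nor annotation nor strand setting is given in the sources used here. Because FPKM is scaled to the reads of the library, abundant genes that gain lower the rest.

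Values were whole multiples of a step per gene, which returned whole reads (within 0.001) for 17445 genes and totals of 7708200 to 10910370 reads per library. The steps fitted lengths in multiples of 3, called coding lengths. Intervals from reads cover counting error only.

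The members, lists and tests were chosen with earlier results of these data known. Tests used limma 3.58.1 under R 4.3.3 on log2 FPKM with a pseudocount of 1, for 15608 genes that reached 1 FPKM in 2 or more libraries, with 1 mean per stage, 8 residual degrees of freedom, a mean-variance trend and Benjamini-Hochberg adjustment over all genes tested. Changes in L compare logs of stage means, and limma's log2 changes compare means of logs. Alternatives were other pseudocounts, scalings, filters, rule thresholds, library weights, a replicate block, fits of 2 stages and each library left out. The scripts were tested on simulated data. Named genes were the 2 extreme members for the fall, the stage 4 level, each direction of the other steps and both sides of the threshold. Lists by product name were not applied, since no names were at hand.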

Additional observations from a re-analysis of the deposited data

How the results depend on the processing

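The number of genes meeting the rule was 118 with a pseudocount of 0.1 and 28 with 5, 36 with median ratio scaling, 205 with a looser threshold on the fall and 10 with a fall of at least 2, against 71. Leaving out 1 library gave 67 to 94. Quantile normalization gave 56, the limits lifted for stage 6 or stage 2 gave 80 and 100, and a stage 4 minimum of 2 or 10 FPKM gave 75 and 61. With the 71 genes fixed, calls from stage 4 to stage 5 numbered 69 to 71 in all settings; the 69 came with a filter of 5 FPKM that tests fewer genes. From stage 2 to stage 3 the calls numbered 1 with a pseudocount of 0.1 or no filter, 4 with a pseudocount of 5 (1 falling), 5 with a replicate block (3 falling) and 7 with library weights (4 falling), against 2 with none falling, and 0 to 4 with 1 library left out. From stage 3 to stage 4 they numbered 0 when only both stages were fitted, 16 with library weights (7 rising and 9 falling) and 2 with voom on recovered reads, against 1, and 0 to 4 with 1 library left out. From stage 5 to stage 6 they numbered 0 when only both stages were fitted and with voom, 5 with a replicate block and 1 with library weights, against 3, and 0 to 4 with 1 library left out. The share of all genes tested that was called moved with the setting too. From stage 2 to stage 3 it was 17% with a replicate block and 31.9% with library weights, against 15.4%. From stage 3 to stage 4 it was 0.935% when only both stages were fitted and 21.8% with library weights, against 3%. From stage 5 to stage 6 it was 4.98% when only both stages were fitted and 8.96% with library weights, against 12.6%. The counts are therefore not read as a trait of the 71 genes. The cause was not tested. Fits of 2 stages have fewer samples behind the spread, and a lone library left at stage 5 or 6 is assumed to vary like the others. The voom fit was chosen after seeing the data. Of 575 alternative values of named changes none changed sign, 41 lost the call and 14 gained it. Most named genes were picked for large changes, and changes that were not called could not lose a call. The named changes from stage 4 to stage 5 were called in all 23 alternatives, and the rule had used that contrast. All lost calls fell on the changes called at the other steps, each of which was called in 12 to 21 of 23 alternatives. The median change from stage 4 to stage 5 was -1.40 with a pseudocount of 5, and the other 67 alternative medians moved by less than the spread between libraries. Deviations of libraries with equal replicate numbers correlated by -0.24 to 0.37, with 7 of 23 pairs above 0.1 and 8 of 13 libraries closest to their own number. The 2 pairs between stages 5 and 6 share 1 value, 0.156, since 2 deviations from a stage mean mirror each other. The labels link no numbers across stages, and no pairing was assumed. The replicate block left all 71 calls from stage 4 to stage 5, the contrast that chose the genes, so this says nothing on pairing. It called 5 genes against 2 from stage 2 to stage 3 and 5 against 3 from stage 5 to stage 6. Depth limits the genes with few reads at stage 5, where 28 of 71 had under 100.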
